A study of Mus musculus with 30 samples.

Results

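The 10 genes described here encode inflammatory cytokines and chemokines (Il1b, Tnf, Il6, Cxcl2, Ccl3 and Ccl4), inhibitors that limit these signals (Il1rn, Nfkbia and Tnfaip3) and the inducible prostaglandin enzyme Ptgs2. They were found as the non-control array probes whose deposited gene name is one of these symbols, 10 of 29676 gene names on the array, and each gene had 1 probe. RNA came from the blood of male C57BL/6J mice, collected by cardiac puncture. The irradiated groups were p38DKI, p38DN and p38WT mice bled 24 h after an x-ray dose of 7 Gy, and the unirradiated groups (0 Gy) were of the same 3 genotypes. Each of the 6 groups had 5 one-colour arrays from separate experiments, 30 in all. The allele names are used as the labels write them, and the alleles' construction and their age in weeks or months are not stated in the labels. The study asked how p38 mitogen-activated protein kinase signalling bears on radiation biodosimetry, the reading of dose from gene expression in blood.

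NF-kB is a family of transcription factors held in the cytoplasm by inhibitor proteins such as IkBα, the product of Nfkbia. Signals from Toll-like, interleukin-1 and tumour necrosis factor receptors activate the IKK kinase complex, which marks IkBα for destruction, and NF-kB then enters the nucleus and switches on cytokine genes together with its own brakes Nfkbia and Tnfaip3. In blood, myeloid cells, chiefly monocytes and neutrophils, are major producers of interleukin-1β and its antagonist, and monocytes of tumour necrosis factor. The p38 kinases act on the same messages after transcription: through the kinase MK2 they restrain the decay of AU-rich mRNAs, among them those of Tnf, Il6, Cxcl2 and Ptgs2.

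RefSeq promoter windows (GRCm38.p6, 300 bases around a start site, most of them upstream, written on the gene's strand) were found for 9 of the 10 genes, all but Ccl4. A kB-type motif, GGG then any 2 bases then TTTCC, was searched on both strands and occurred in 1.63% of the 32851 windows of this length. It was found in windows of Il6, Cxcl2, Il1rn, Nfkbia and Tnfaip3, and was not in those of Il1b, Tnf, Ccl3 and Ptgs2. Il1rn had 3 windows, 2 of them overlapping and holding the same match, and Tnfaip3 had 2, of which 1 held it, so these genes had more windows in which to match than the share per window allows for. A match is a string of letters and not a measured binding site, and a window without it may hold other spellings, which were not searched. The motif was chosen with these windows in view. The windows of the brakes Nfkbia and Tnfaip3 and of Il6 are shown because they hold the motif, with its match in capitals. Nfkbia is at chr12:55492598-55492897 on the minus strand, Tnfaip3 at chr10:19015361-19015660 on the minus strand and Il6 at chr5:30012864-30013163 on the plus strand.
Nfkbia: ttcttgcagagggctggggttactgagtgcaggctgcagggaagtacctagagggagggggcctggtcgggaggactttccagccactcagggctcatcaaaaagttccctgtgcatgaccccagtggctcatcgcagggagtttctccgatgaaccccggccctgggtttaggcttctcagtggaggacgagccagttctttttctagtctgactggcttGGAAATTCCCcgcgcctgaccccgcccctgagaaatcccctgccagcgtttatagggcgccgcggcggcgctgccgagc
Tnfaip3: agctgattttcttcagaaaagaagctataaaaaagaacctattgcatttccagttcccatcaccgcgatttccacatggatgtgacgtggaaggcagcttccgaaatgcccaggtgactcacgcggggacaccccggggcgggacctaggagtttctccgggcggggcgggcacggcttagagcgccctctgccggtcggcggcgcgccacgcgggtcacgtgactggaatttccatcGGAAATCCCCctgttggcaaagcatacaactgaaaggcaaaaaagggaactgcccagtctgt
Il6: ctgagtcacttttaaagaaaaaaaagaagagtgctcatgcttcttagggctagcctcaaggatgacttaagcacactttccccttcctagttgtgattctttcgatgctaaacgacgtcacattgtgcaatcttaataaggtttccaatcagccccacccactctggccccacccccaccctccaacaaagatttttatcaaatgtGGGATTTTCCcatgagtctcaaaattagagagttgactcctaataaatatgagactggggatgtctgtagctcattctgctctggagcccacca
The windows of Il1b (chr2:129371090-129371389, minus strand) and Tnf (chr17:35201958-35202257, minus strand), the cytokine genes that rose after irradiation in p38WT blood, lack that motif and are shown with their TATAAA element in capitals, a motif present in 13.6% of all windows when both strands are read. Il1rn also rose there and holds the kB-type motif, so the motif does not sort these genes by direction.
Il1b: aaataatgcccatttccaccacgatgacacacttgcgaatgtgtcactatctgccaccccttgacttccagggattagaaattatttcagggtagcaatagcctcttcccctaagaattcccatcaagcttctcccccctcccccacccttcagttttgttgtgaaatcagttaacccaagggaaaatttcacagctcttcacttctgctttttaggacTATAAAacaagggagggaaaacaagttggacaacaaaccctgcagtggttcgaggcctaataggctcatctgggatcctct
Tnf: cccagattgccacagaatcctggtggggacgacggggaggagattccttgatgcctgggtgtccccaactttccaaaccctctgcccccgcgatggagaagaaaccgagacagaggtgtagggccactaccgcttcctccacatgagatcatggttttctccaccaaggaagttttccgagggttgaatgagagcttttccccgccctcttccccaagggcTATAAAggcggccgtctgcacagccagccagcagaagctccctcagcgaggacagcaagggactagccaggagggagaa
The Il1rn probe is shown because it fixes what the array can tell of this gene. It covers the last codons and the stop codon, in capitals, at mm9 chr2:24205094-24205153 on the plus strand, and the deposited annotation lists 3 RefSeq transcripts for it, so the transcripts are read together.
Il1rn probe: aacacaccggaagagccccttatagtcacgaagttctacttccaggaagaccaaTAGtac

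All levels below are log2 of the processed intensity relative to the 75th percentile of the same array, so a level of 0 is that percentile and a step of 1 is a 2-fold change in intensity. The level of one gene cannot be set against that of another, since each probe binds with its own strength. Testing required 4 or more arrays of some group on which the probe was well above background. On this rule 8 of the 10 members passed, and Cxcl2 and Ptgs2 did not. Il1b, Ccl4 and Nfkbia were well above background on all 30 arrays, Tnfaip3 on 29, Ccl3 on 27, Tnf on 26, Il1rn on 21 and Il6 on 15. No member spot was saturated. Il1b, Tnf and Ptgs2 were spotted 10 times per array, with a median within-array SD of 0.07 for Il1b, 0.18 for Tnf and 0.29 for Ptgs2 on the log2 scale. "Rose" and "fell" are used where limma's p, adjusted by Benjamini-Hochberg over 18733 genes, was under 0.05.

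Several arrays stood apart before any comparison was made. The share of probes above background lay between 39.7% and 63.2%, and the lowest was p38WT irradiated replicate 3. Hepatocyte markers, which blood should lack, were over 4 log2 units above the median array on p38DKI irradiated replicate 2 (8.89) and on p38DN unirradiated replicates 2, 4 and 5 (6.70, 7.75 and 7.70). Heart muscle markers were over 3 units above it on p38DN irradiated replicate 3 (4.26), p38WT irradiated replicate 2 (4.95) and p38WT unirradiated replicate 1 (3.58). The p38DN arrays lay on slides of their own (6 to 10) and carried an older annotation, so slide and genotype cannot be told apart for p38DN levels against the other genotypes. Each of those slides held both doses. In the other genotypes dose and slide largely coincided. Only slide 2 held both doses of p38WT, and only slide 4 both doses of p38DKI. Effects of dose and slide are therefore not cleanly separated in these 2 genotypes. In whole blood, fewer cells of a type and less RNA per cell cannot be told apart either.

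**Figure D1:**
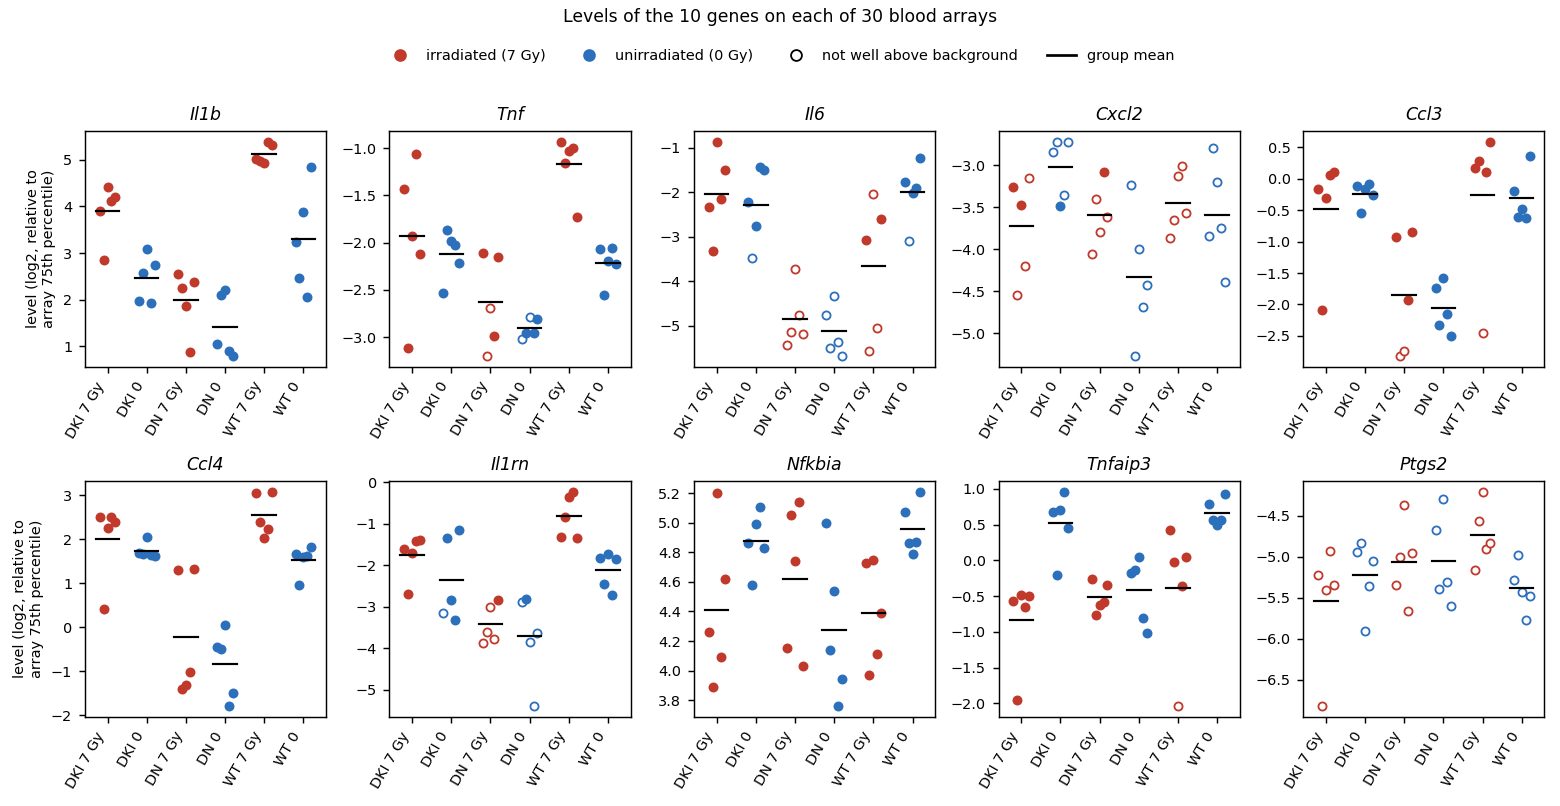
Level of each gene (log2, relative to the 75th percentile of the array, vertical axis) on every array of the 6 groups (horizontal axis), with red points for irradiated and blue for unirradiated arrays and open points where the probe was not well above background. Bars are group means, and Il1b in irradiated p38WT blood sits between 4.93 and 5.39, above all other groups, and Ptgs2 has open points only.

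In p38WT blood 5 of the 8 tested members changed 24 h after 7 Gy: Il1b, Tnf and Il1rn rose and Il6 and Tnfaip3 fell. Of all 18733 genes tested, 27.1% were called in this comparison (15% higher and 12.1% lower). In p38DKI blood 2 of 8 were called, Il1b higher and Tnfaip3 lower, against 31.3% of all genes (12.1% higher and 19.3% lower). In p38DN blood 0 of 8 were called by limma, against 27.9% of all genes (17.6% higher and 10.3% lower). At an unadjusted p under 0.05 there were also 0 of 8 members, against 7322 of the 18733 genes. The counts of the genotypes come from unlike slide layouts, since dose and slide largely coincided in p38WT and p38DKI but not in p38DN. The arrays of both doses did not overlap for 1 of 8 members in p38DKI (19.7% of all genes), 0 of 8 in p38DN (20.1%) and 6 of 8 in p38WT (24.3%). Among called genes, the share that was higher depended on the scaling: 38.5% in p38DKI, against 74.8% with array medians and 57.6% in the deposited values, 63% in p38DN, against 47.3% with a percentile over probes detected on all arrays and 47.7% in the deposited values, and 55.5% in p38WT, against 38.1% with that percentile. The median change over the 8 members was 0.22 in p38DKI, 0.29 in p38DN and 0.54 in p38WT, where the median over all genes was -0.25, 0.01 and -0.03 in the same order of genotypes.

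Il1b encodes interleukin-1β, a fever-inducing cytokine that myeloid cells make as an inactive precursor. Its level was 5.02, 4.98, 4.93, 5.39 and 5.31 on the irradiated p38WT arrays, against 3.23, 2.46, 3.89, 2.06 and 4.84 on the unirradiated ones. The groups did not overlap, although unirradiated replicate 5, at 4.84, was close to the lowest irradiated array, at 4.93. Il1b rose by 1.83 ± 0.42 (log2, SE), which is 3.55-fold, with an adjusted p of 0.00175 by limma. In p38DKI blood Il1b was 3.91, 2.86, 4.42, 4.11 and 4.2 after irradiation, against 1.98, 2.58, 3.08, 1.93 and 2.74 without it. Irradiated replicate 2, the array with the highest hepatocyte marker level, was the only one of its group below the highest unirradiated array. The rise was 1.44 ± 0.42, or 2.71-fold (adjusted p 0.0105), and 1.70 without that replicate (adjusted p 0.00354).

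In p38DN blood Il1b was at 2.56, 2.24, 1.87, 0.87 and 2.38 after irradiation, against 1.05, 2.10, 2.20, 0.90 and 0.79 without it. The groups overlapped, and the difference of 0.58 (95% interval -0.28 to 1.44) was not called (adjusted p 0.322). Within the 5 slides that held 1 irradiated and 1 unirradiated p38DN array each, it was 1.52 and 1.59 on slides 8 and 9, and between -0.33 and 0.15 on slides 6, 7 and 10. In p38WT only slide 2 held both doses, with 3 irradiated arrays and unirradiated replicate 5, and there the Il1b difference was 0.13. Without that replicate it was 2.22 over the remaining arrays (adjusted p 0.00017). In p38DKI slide 4 held 1 irradiated and 3 unirradiated arrays, with a difference of 1.33. With the slide as a fixed block, where these slides alone carry each effect, 0 of 8 members were called in p38DKI and 0 of 8 in p38WT. In p38DKI Il1b had an adjusted p of 0.319 and Tnfaip3 of 0.356 (-1.28). In p38WT the values were 0.13 for Il1b (adjusted p 0.975), 1.19 for Tnf (0.361), -2.33 for Il6 (0.408), 1.01 for Il1rn (0.718) and -1.48 for Tnfaip3 (0.407).

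Markers of neutrophils, the most abundant blood phagocytes, moved beside Il1b. Of 14 tested neutrophil markers, 10 rose and 1 fell in p38DKI, 1 rose in p38DN and 12 rose in p38WT. In the difference of effects p38DN minus p38WT 4 of the 14 were called, all lower, with a median of -1.37, and in p38DKI minus p38WT 0 were called, with a median of -0.62. Their summed intensity lay between 178000 and 217000 in irradiated and between 36700 and 95900 in unirradiated p38DKI blood. In p38DN blood it lay between 16200 and 73300 after irradiation and between 11500 and 43100 without it. In p38WT blood it lay between 204000 and 273000 after irradiation and between 58800 and 179000 without it. These sums are not scaled to the array, whose 75th percentile ran from 43.3 to 230.4. The mean marker level, which is scaled, lay between 1.82 and 3.23 in irradiated and between 1.16 and 1.94 in unirradiated p38DKI blood. That mean lay between 1.49 and 2.91 in irradiated and between 1.51 and 2.31 in unirradiated p38DN blood. For p38WT blood it lay between 3.49 and 4.17 and between 1.39 and 3.08. Of the 15 markers on the array, at least 13 were above background on every array of each group. On unirradiated p38WT replicate 5 the mean marker level was 3.08, against 1.39 to 2.51 on the other 4 arrays of that group. Monocyte and macrophage markers had another pattern. Their mean level lay between 2.39 and 3.24 in irradiated and between 0.61 and 1.61 in unirradiated p38DN blood, where Il1b was not called. In p38DKI blood it lay between 1.91 and 2.97 and between 0.92 and 1.84. For p38WT blood the ranges overlapped, at 1.16 to 2.48 and 1.09 to 1.82. The part of either marker list in the Il1b result was not tested.

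**Figure D2:**
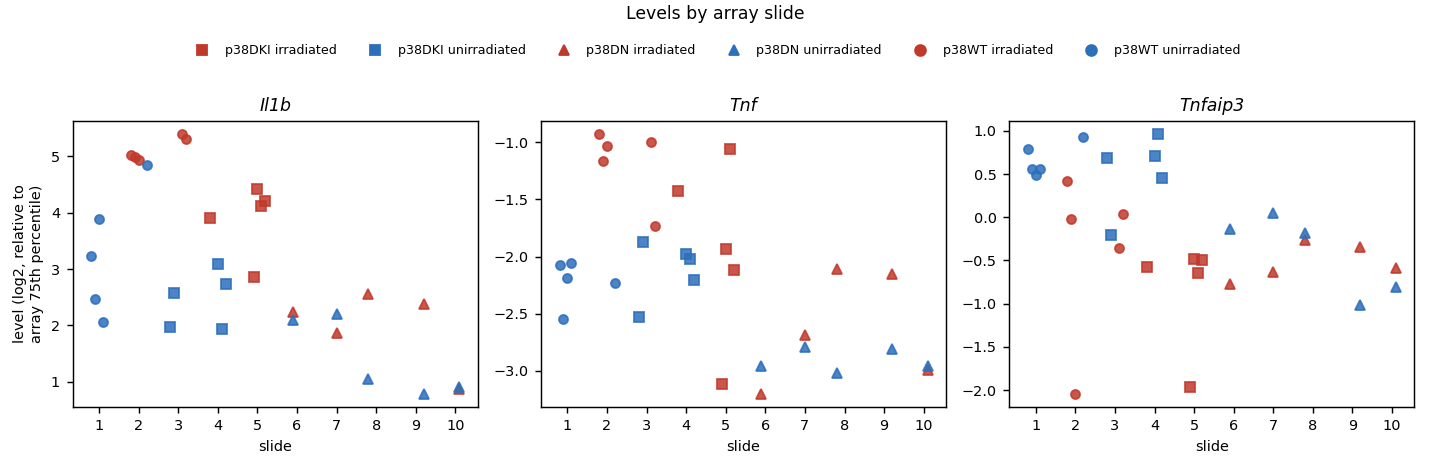
Levels (log2, vertical axis) of Il1b, Tnf and Tnfaip3 by array slide (horizontal axis, 1 to 10), with squares for p38DKI, triangles for p38DN, circles for p38WT, red for irradiated and blue for unirradiated arrays. On slide 2 the unirradiated p38WT array lies beside the irradiated ones for Il1b, with a difference of 0.13, but not for Tnf, with one of 1.19.

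Tnf encodes tumour necrosis factor, an activator of NF-kB and of cell death pathways. In p38WT blood it was at -0.93, -1.16, -1.03, -1 and -1.73 after irradiation, against -2.07, -2.55, -2.19, -2.06 and -2.23 without it. All 5 irradiated arrays were higher than all 5 unirradiated ones. Tnf rose by 1.05 ± 0.27, or 2.07-fold (adjusted p 0.00425). In p38DKI blood the values were -1.43, -3.12, -1.93, -1.06 and -2.12 after irradiation, against -2.53, -1.87, -1.98, -2.02 and -2.21 without it, so the groups overlapped. The difference of 0.19 (95% interval -0.36 to 0.74) was not called (adjusted p 0.593), and without irradiated replicate 2 it was 0.49 (adjusted p 0.111). In p38DN blood the values lay between -3.20 and -2.11 after irradiation and between -3.02 and -2.79 without it, with 3 of 5 arrays above background in each group, and the difference of 0.28 was not called (adjusted p 0.472). With normexp background correction, which adds an offset of 50 to every intensity and so draws dim probes together, the p38WT difference was 0.12 with an adjusted p of 0.000516.

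Il6 encodes interleukin-6, a cytokine that drives the acute phase response of the liver. In irradiated p38WT blood it was at -3.07, -5.56, -2.03, -5.04 and -2.59, with 2 of 5 arrays well above background, against -1.76, -3.10, -2.01, -1.91 and -1.22 in unirradiated blood, with 4 of 5. The groups overlapped, and 2 irradiated arrays lay far below the other 8. Il6 fell by 1.66 ± 0.57 on the log2 scale, or 3.15-fold (adjusted p 0.0298). The call was lost with normexp (-0.08, adjusted p 0.866), in a fit of the p38WT arrays alone (adjusted p 0.0879) and without the arrays high in heart muscle markers (-1.12, adjusted p 0.166). It was also lost when irradiated replicates 2 or 4 (-1.18 and -1.31) or unirradiated replicates 1, 4 or 5 (-1.60, -1.64 and -1.46) were left out. In p38DKI blood Il6 lay between -3.32 and -0.86 after irradiation and between -3.48 and -1.42 without it, a difference of 0.24 that was not called (adjusted p 0.755). In p38DN blood it was not well above background on any of the 10 arrays, so no fold is given.

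Cxcl2, Ccl3 and Ccl4 encode chemokines, Cxcl2 for neutrophils through Cxcr2, and Ccl3 and Ccl4 for monocytes, T cells and NK cells. Cxcl2 was well above background on 4 of 30 arrays, which were p38DKI irradiated replicates 1 and 3, p38DKI unirradiated replicate 3 and p38DN irradiated replicate 4, at levels between -3.48 and -3.08. Ccl3 was at 0.17, 0.28, -2.46, 0.11 and 0.59 in irradiated p38WT blood, against -0.20, -0.61, -0.48, -0.62 and 0.36 in unirradiated blood. Irradiated replicate 3, the array with the fewest probes above background, was far below the next of its group at 0.11. The difference of 0.05 was not called (adjusted p 0.956), and without that replicate it was 0.60 (adjusted p 0.294). Ccl3 was not called in p38DKI (-0.24, adjusted p 0.705) or p38DN (0.21, adjusted p 0.784).

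Ccl4 was at 3.05, 2.40, 2.03, 2.23 and 3.08 in irradiated p38WT blood, against 1.67, 0.96, 1.59, 1.61 and 1.82 in unirradiated blood. The groups did not overlap, but the difference of 1.03 ± 0.48 was not called (adjusted p 0.117), and it passed in a fit of the p38WT arrays alone (adjusted p 0.0111) and with normexp (0.61, adjusted p 0.0245). In p38DKI blood Ccl4 was at 2.50, 0.41, 2.26, 2.51 and 2.39 after irradiation, against 1.68, 1.66, 2.06, 1.65 and 1.61 without it. Replicate 2 was the only irradiated array below the unirradiated ones, and the difference was 0.29 with it (adjusted p 0.659) and 0.69 without it (adjusted p 0.28). In irradiated p38DN blood replicates 1 and 5 were at 1.31 and 1.32 and the other 3 arrays between -1.40 and -1.01, against -1.79 to 0.06 in unirradiated blood. Ccl3 was split along the same arrays, at -0.93 and -0.84 on replicates 1 and 5 and between -2.82 and -1.93 on the other 3. The p38DN difference of Ccl4 was 0.62 (95% interval -0.37 to 1.60), which was not called (adjusted p 0.361). Without the arrays high in hepatocyte markers, which leaves 2 unirradiated p38DN arrays, it was -0.03, and the uncalled p38DN differences of Ccl3, Il1rn and Nfkbia also turned, to -0.19, -0.05 and -0.15.

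Il1rn encodes the interleukin-1 receptor antagonist, which binds the receptor without activating it. In p38WT blood it was at -1.33, -0.85, -0.36, -0.23 and -1.35 after irradiation, against -1.83, -2.45, -1.73, -2.73 and -1.86 without it, with no overlap. It rose by 1.3 ± 0.44, or 2.46-fold (adjusted p 0.0294). The call was lost without irradiated replicates 3 or 4 or unirradiated replicates 2 or 4 (1.14 to 1.21, adjusted p between 0.0667 and 0.083), and without the arrays high in heart muscle markers (1.37, adjusted p 0.0592). In p38DKI blood the values were -1.61, -2.70, -1.70, -1.42 and -1.39 after irradiation, against -3.16, -1.34, -2.85, -3.32 and -1.16 without it. The unirradiated group spanned a wider range than the irradiated one, and the difference of 0.60 (95% interval -0.30 to 1.51) was not called (adjusted p 0.288). In p38DN blood Il1rn was well above background on 1 of 5 arrays in each group, and the difference of 0.30 was not called (adjusted p 0.665).

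Nfkbia and Tnfaip3, the brakes of NF-kB, did not move in the direction of Il1b and Tnf in p38WT blood. Tnfaip3 encodes A20, an enzyme that edits ubiquitin chains and stops signalling upstream of IKK. In p38WT blood it was at 0.42, -0.02, -2.04, -0.36 and 0.04 after irradiation, against 0.79, 0.56, 0.49, 0.56 and 0.93 without it, with no overlap. It fell by 1.06 ± 0.34, or 2.09-fold (adjusted p 0.0209). Without irradiated replicate 3, which was far below the next array at -0.36 and was not above background, the difference was -0.65 and no longer passed (adjusted p 0.0865), nor did it in a fit of the p38WT arrays alone (adjusted p 0.0667). In p38DKI blood Tnfaip3 was at -0.57, -1.96, -0.48, -0.65 and -0.50 after irradiation, against 0.68, -0.20, 0.71, 0.96 and 0.45 without it. All irradiated arrays were lower, and the fall was 1.35 ± 0.34, or 2.55-fold (adjusted p 0.00382), and -1.07 without irradiated replicate 2 (adjusted p 0.0142). With each array centred on its median, a setting that moved the median change of all genes in p38DKI to 0.17, against -0.25 with the 75th percentile, the Tnfaip3 difference was -0.93 and did not pass (adjusted p 0.0713). In p38DN blood Tnfaip3 lay between -0.77 and -0.26 after irradiation and between -1.02 and 0.05 without it, a difference of -0.10 that was not called (adjusted p 0.867).

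B cells express Tnfaip3 along with many NF-kB genes, and all 10 tested B cell markers fell in each genotype, with a median change of -4.32 in p38DKI, -2.66 in p38DN and -4.23 in p38WT. Their summed intensity lay between 699 and 2390 in irradiated and between 11400 and 49300 in unirradiated p38DKI blood. It lay between 846 and 4130 in irradiated and between 9000 and 22200 in unirradiated p38DN blood. In p38WT blood it lay between 702 and 1540 after irradiation and between 23000 and 50600 without it. These sums are not scaled to the array either. The scaled mean marker level was at most 0.16 on irradiated arrays and at least 1.87 on unirradiated ones. Between 6 and 9 of the 10 markers were above background on irradiated arrays, and all 10 on unirradiated arrays. In p38DN blood these markers fell while the Tnfaip3 difference was -0.10 and was not called by limma (adjusted p 0.867). The mean level of T cell markers was also lower on irradiated arrays in each genotype. The part of either marker list in the fall of Tnfaip3 was not tested.

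Nfkbia was at 4.73, 3.97, 4.75, 4.11 and 4.39 in irradiated p38WT blood, against 5.07, 4.86, 4.79, 4.87 and 5.21 in unirradiated blood. The groups did not overlap, with the closest arrays at 4.75 and 4.79, but the difference of -0.57 ± 0.26 was not called (adjusted p 0.0996). It passed in a fit of the p38WT arrays alone (adjusted p 0.0404) and with the percentile over probes detected on all arrays (-0.75, adjusted p 0.0233). In p38DKI blood the values were 4.26, 3.89, 5.2, 4.09 and 4.62 after irradiation, against 4.86, 4.58, 4.99, 5.11 and 4.83 without it, and the difference of -0.46 was not called (adjusted p 0.161). In p38DN blood they were 4.15, 5.05, 4.74, 5.14 and 4.03 after irradiation, against 5, 4.14, 4.54, 3.76 and 3.94, with a difference of 0.34 (adjusted p 0.337). The group means of Nfkbia spanned 4.28 to 4.96, the narrowest range among the 8 tested members.

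Ptgs2 encodes cyclooxygenase-2, the inducible enzyme that starts prostaglandin synthesis. It was not well above background on any of the 30 arrays, with levels between -6.82 and -4.21, and no fold is given.

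**Figure D3:**
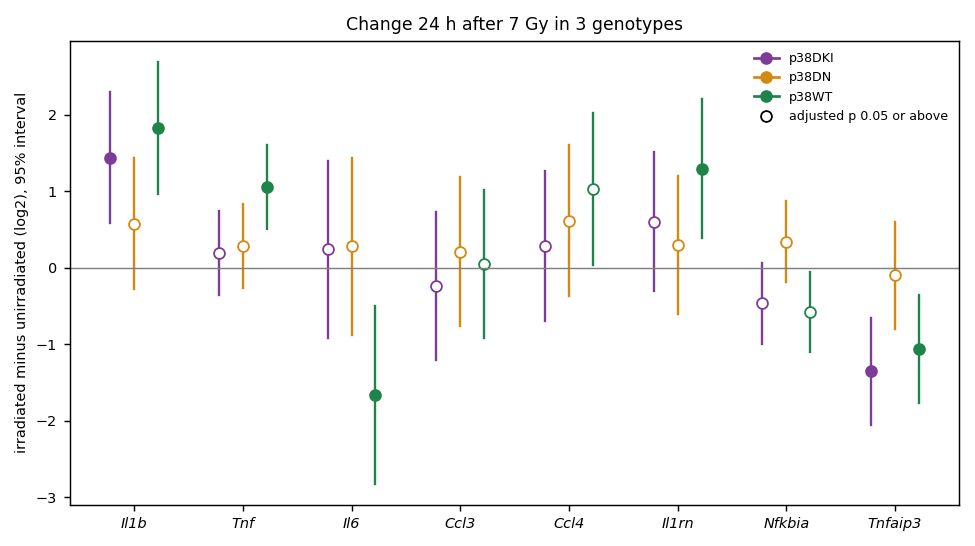
Irradiated minus unirradiated level (log2, vertical axis) of the 8 tested genes in p38DKI, p38DN and p38WT blood, with 95% intervals from limma, Il6 in p38DN being below background in both groups. Filled points had an adjusted p under 0.05: Il1b and Tnfaip3 in p38DKI, none in p38DN, and Il1b, Tnf, Il6, Il1rn and Tnfaip3 in p38WT.

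Whether the response to irradiation differed between genotypes was tested as the difference of the irradiation effects. For p38DKI minus p38WT, 0 of 8 members were called by limma, against 0.00534% of all genes. At an unadjusted p under 0.05 there were 2 of 8 members and 2614 of the 18733 genes. The largest of these differences was that of Il6, 1.90 (95% interval 0.26 to 3.54, adjusted p 0.308), and that of Tnf was -0.86 (-1.64 to -0.08, adjusted p 0.325). For Il1b the difference was -0.39 (-1.60 to 0.83, adjusted p 0.758), an interval that includes both no difference and a response weaker by more than 1 log2 unit in p38DKI. For p38DN minus p38WT, 0 of 8 members were called, against 1.64% of all genes. At an unadjusted p under 0.05 there were 3 of 8 members and 3555 of the 18733 genes, and 1 of the 3 was Il6, for which no size is given because p38DN arrays did not measure it above background. Il1b differed by -1.25 (-2.47 to -0.04, adjusted p 0.249) and Nfkbia by 0.92 (0.17 to 1.66, adjusted p 0.163), and the p38DN effect of Nfkbia turned to -0.15 without the arrays high in hepatocyte markers. Both comparisons share the p38WT arrays, whose doses lay mostly on different slides. Effects called in p38WT and not in another genotype are therefore not shown to differ between them for any of these members. With the hepatocyte marker level as a covariate, 1 member was called in p38DN minus p38WT, Tnf at -1.18 (adjusted p 0.0457).

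Levels of irradiated p38DKI against irradiated p38WT blood were called for 0 of 8 members, against 4.51% of all genes, although 4 of 8 had an unadjusted p under 0.05, as did 4633 of the 18733 genes. The arrays of the genotypes did not overlap for 2 of 8 members, Il1b and Il1rn, against 6.34% of all genes. Il1b lay between 2.86 and 4.42 in irradiated p38DKI and between 4.93 and 5.39 in irradiated p38WT blood, a difference of -1.22 ± 0.42 (adjusted p 0.0797), and of -0.96 without p38DKI replicate 2 (adjusted p 0.248). In the same comparison 5 of 14 neutrophil markers were called lower and 0 higher, with a median of -1.06, and their part in the Il1b and Il1rn values was not tested. Il1rn lay between -2.70 and -1.39 in p38DKI, all below the lowest p38WT array at -1.35, replicates 4 and 5 narrowly (-1.42 and -1.39), a difference of -0.94 (adjusted p 0.187). Tnf differed by -0.76 (adjusted p 0.087) and Il6 by 1.63 (adjusted p 0.0837). With the slide as a random block, whose estimated correlation was -0.05, Il1b (-1.26, adjusted p 0.0408), Tnf (-0.78, adjusted p 0.0466) and Il6 (1.64, adjusted p 0.0455) passed. No slide held both genotypes at the same dose. In unirradiated blood 0 of 8 members were called, against 0.101% of all genes, with 0 at an unadjusted p under 0.05, against 1377 of the 18733 genes. No member lacked overlap between these groups, against 2.88% of all genes.

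For Il1b the group means fell in the order irradiated p38WT (5.13 ± 0.21, SD, n = 5), irradiated p38DKI (3.90 ± 0.61), unirradiated p38WT (3.30 ± 1.12), unirradiated p38DKI (2.46 ± 0.50), irradiated p38DN (1.99 ± 0.67) and unirradiated p38DN (1.41 ± 0.69). Arrays of each neighbouring pair overlapped, apart from irradiated p38WT against irradiated p38DKI. Irradiated p38WT also had the highest mean of Tnf, Ccl4 and Il1rn. Both p38DN groups had the lowest 2 means for Il1b, Tnf, Ccl3 and Ccl4, as a description only, since these arrays lay on other slides. Il6 and Il1rn were mostly not above background there and are not ranked.

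Across arrays the members often deviated together. Irradiated p38DKI replicate 2 was the lowest of its group for 8 of 8 tested members, unirradiated p38WT replicate 5 the highest for 6 of 8 and unirradiated p38DN replicate 3 the highest for 6 of 8. The 75th percentile intensity that scales all levels of an array was 230.4 on that p38DKI array, the highest of all arrays. On the other arrays of its group it lay between 67.5 and 118.4. A higher percentile lowers all levels of an array together, and its part in these values was not tested. Irradiated p38DKI replicate 2 also had the highest hepatocyte marker level of all arrays, 8.89 above the median array, and among unirradiated p38DN arrays replicate 5 was the lowest for 4 of 8 members, replicate 4 for 3 of 8 and replicate 2 for 0 of 8, all 3 with a high hepatocyte level.

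**Figure D4:**
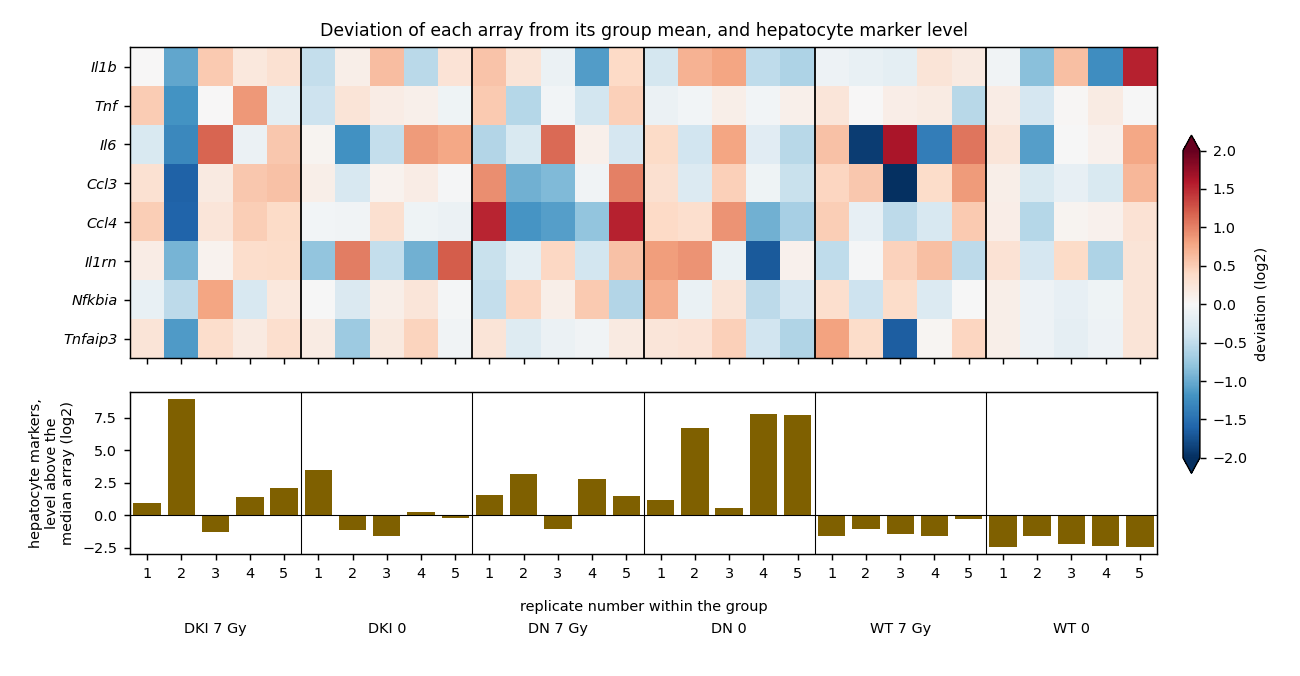
The upper panel shows the deviation of each array (columns, replicates 1 to 5 within each of the 6 groups) from its group mean for the 8 tested genes (rows), in log2, and the lower panel the hepatocyte marker level above the median array (log2). Replicate 2 of irradiated p38DKI is blue in every row and has the tallest bar, at 8.89.

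The wider pathway was described with 12 lists of 155 genes, none of them members, of which 135 were tested. In p38DKI blood 59 were called (34 higher and 25 lower, 43.7%), in p38DN blood 58 (44 and 14, 43%) and in p38WT blood 58 (38 and 20, 43%), with medians of 0.10, 0.36 and 0.27. For all genes those shares were 31.3%, 27.9% and 27.1% in the same order of genotypes. The lists were chosen with earlier results of these data known, so the shares cannot show an excess in the pathway. These lists hold genes of cell types whose markers moved, and the part of those markers was not tested.

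Among NF-kB subunits, of 5 tested, 4 fell in p38DKI, 1 in p38DN and 2 in p38WT, and none rose. Rel, which encodes the lymphocyte-rich subunit c-Rel, fell by 1.38 in p38DKI, 0.95 in p38DN and 1.44 in p38WT (adjusted p 0.00137, 0.0216 and 0.000909). Nfkb2, the gene of the subunit made through the non-canonical pathway, fell by 1.11 in p38DKI and by 0.96 in p38WT, and its change in p38DN was -0.43 (adjusted p 0.163). Among 12 other inhibitors and brakes, 4 fell in p38DKI, 2 fell and 1 rose in p38DN, and 4 fell and 1 rose in p38WT. Nfkbie, an IkB protein that retains c-Rel and RelA, fell by 1.47 in p38DKI and 0.73 in p38WT (adjusted p 2.01e-05 and 0.0148), with -0.26 in p38DN (adjusted p 0.412). Tax1bp1, an adaptor that brings A20 to its targets, fell by 1.52 in p38DKI, 0.78 in p38DN and 1.01 in p38WT.

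Of 10 IKK subunits and upstream kinases, 1 fell in p38DKI, 3 rose and 2 fell in p38DN, and 1 rose and 2 fell in p38WT. Ikbkb, the catalytic subunit IKKβ, fell by 0.98 in p38WT (adjusted p 0.000926), with -0.53 in p38DKI (adjusted p 0.0529) and -0.02 in p38DN (adjusted p 0.949). Ikbke, an IKK-related kinase of the interferon response, rose by 0.87 in p38DN (adjusted p 0.00361).

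Inhibitors of the interleukin-1 family were the named genes of that list. Il1r2, a decoy receptor that binds interleukin-1 without signalling and also a neutrophil marker here, rose 6.70-fold in p38DKI, 4-fold in p38DN and 8.81-fold in p38WT (adjusted p 5.14e-06, 0.000225 and 7.61e-07). Il18bp, which neutralises interleukin-18, rose 5.45-fold, 6.12-fold and 4.89-fold in p38DKI, p38DN and p38WT blood. Of the 9 tested genes of this family, 5 rose and 1 fell in p38DKI, 5 rose and 2 fell in p38DN and 3 rose in p38WT.

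Of 5 tested receptors for the member chemokines, 4 rose and 1 fell in p38DKI, 2 rose in p38DN and 4 rose in p38WT. Cxcr1, a neutrophil chemokine receptor, rose by 2.69 in p38DKI, 1.79 in p38DN and 3.48 in p38WT (log2). Among 16 tested other cytokines and chemokines, 7 rose in p38DKI, 8 in p38DN and 6 in p38WT, and none fell. Tnfsf13b, the B cell survival factor BAFF, rose by 1.42, 1.33 and 1.86 in p38DKI, p38DN and p38WT. Cxcl16, a chemokine that is also a scavenger receptor, rose by 1.15 in p38DKI and 1.64 in p38DN, with 0.43 in p38WT (adjusted p 0.194).

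Of 18 Toll-like receptors and adaptors, 6 rose and 3 fell in p38DKI, 7 rose and 2 fell in p38DN, and 8 rose and 2 fell in p38WT. Tlr1 and Tlr6, close relatives that each pair with Tlr2, went opposite ways: Tlr6 rose by 1.21, 1.11 and 1.84 and Tlr1 fell by 2.28, 1.82 and 1.66 in p38DKI, p38DN and p38WT. Of 13 tumour necrosis factor and interleukin-6 receptors and adaptors, 2 rose and 5 fell in p38DKI, 2 rose and 2 fell in p38DN and 1 rose and 3 fell in p38WT. Traf5, an adaptor of lymphocyte receptors, fell by 1.67, 0.99 and 1.40 in p38DKI, p38DN and p38WT. Il6st, the shared signalling receptor gp130, fell by 1.75 in p38WT (adjusted p 9.8e-05), with 0.15 in p38DKI (adjusted p 0.712) and -0.28 in p38DN (adjusted p 0.521). Ripk1, a kinase of the tumour necrosis factor receptor complex, was the 1 gene of the 12 pathway lists called in a difference of irradiation effects: it rose by 1.16 in p38DN with -0.06 in p38WT, a difference of 1.22 (adjusted p 0.042). Ripk1 also rose in p38DKI, by 0.58 (adjusted p 0.0441), and its difference there from p38WT, 0.64, was not called (adjusted p 0.356).

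Of 13 other NF-kB target genes, 2 rose and 5 fell in p38DKI, 3 rose and 2 fell in p38DN and 4 rose and 3 fell in p38WT. Cd83, a marker of activated B and dendritic cells, fell 10.8-fold in p38DKI, 6.03-fold in p38DN and 8.50-fold in p38WT. Sod2, mitochondrial superoxide dismutase, fell 2.22-fold, 4.09-fold and 2.88-fold in p38DKI, p38DN and p38WT. Of 9 inflammasome genes, which process the interleukin-1β precursor, 2 rose in p38DKI, 2 rose in p38DN and 1 rose and 2 fell in p38WT. Casp4, the mouse caspase-11 gene, rose by 1.16, 1.67 and 1.5, and Nek7, a partner of Nlrp3, fell by 0.71 in p38WT (adjusted p 0.000859), with -0.29 in p38DKI (adjusted p 0.131) and -0.13 in p38DN (adjusted p 0.576). Its effects were not called as different from p38WT in p38DKI (adjusted p 0.372) or p38DN (adjusted p 0.133).

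Among 11 genes of AU-rich mRNA decay and the p38 kinase arm, 1 fell in p38DKI, 4 rose in p38DN and 1 rose and 1 fell in p38WT. Rc3h1, which encodes the mRNA decay factor Roquin, rose by 1.22 in p38DN and 0.66 in p38WT, with 0.32 in p38DKI (adjusted p 0.141). Zfp36l1, a relative of tristetraprolin, fell by 0.71 in p38WT (adjusted p 0.0107), with -0.49 in p38DKI (adjusted p 0.065) and -0.48 in p38DN (adjusted p 0.0778). Neither difference from p38WT was called (adjusted p 0.727 and 0.712). Beside undetected Ptgs2, other prostaglandin and leukotriene genes were measured, and of 14 tested, 6 rose in p38DKI, 7 rose and 1 fell in p38DN and 8 rose and 1 fell in p38WT. Ptgs1, the constitutive cyclooxygenase, abundant in platelets, rose 2.68-fold, 6.66-fold and 3.81-fold in p38DKI, p38DN and p38WT, and Tbxas1, thromboxane synthase, rose 1.96-fold, 4.25-fold and 2.98-fold. All 9 tested platelet markers rose in p38DN and p38WT and 4 of 9 in p38DKI, and their part in the rise of Ptgs1 and Tbxas1 was not tested.

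**Figure D5:**
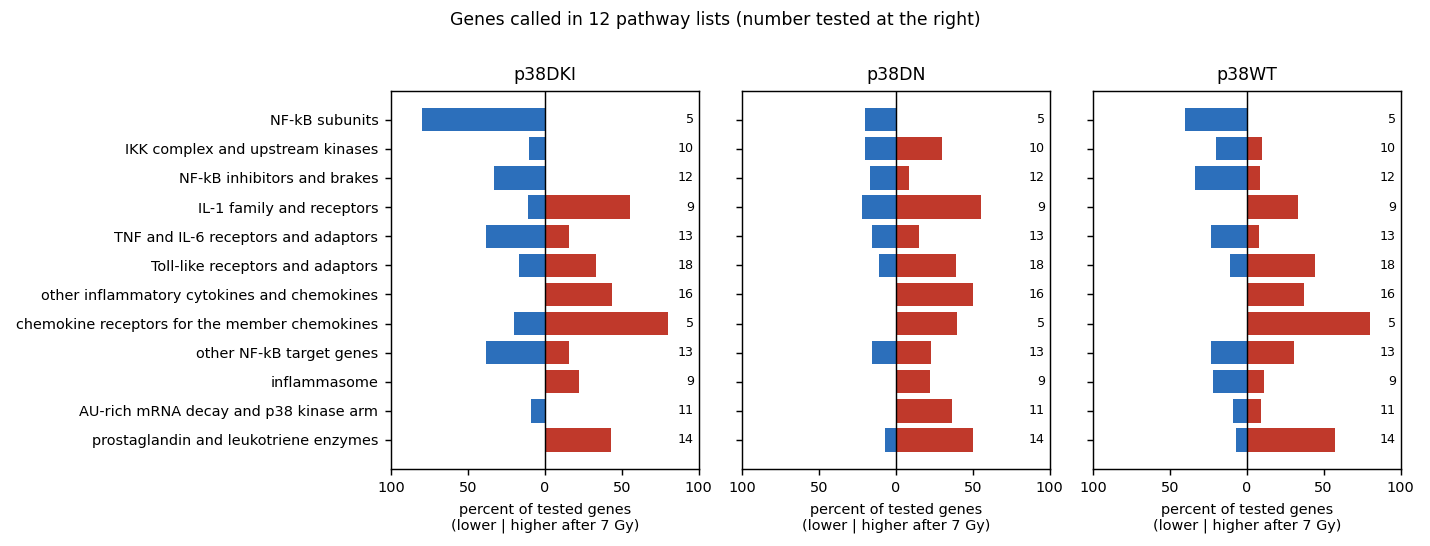
Percent of tested genes (horizontal axis) called higher (red, right) or lower (blue, left) after irradiation in each of 12 pathway lists (rows) in p38DKI, p38DN and p38WT blood, with the number tested at the right edge. The bars of the NF-kB subunits point left in every genotype and those of other cytokines and chemokines point right.

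The genes whose 6 group means were most like those of each called member were found by the root mean square difference after centring each gene on its own mean, a description over 6 groups with no test. Both p38DN means enter this distance, although slide and genotype cannot be told apart there. For Il6 and Il1rn the p38DN arrays were also mostly not above background, so likeness to these members rests partly on background signal. Nearest to Il1b was Arg2, the mitochondrial arginase, at 0.16 log2 units, where the root mean square amplitude of Il1b itself was 1.24. Nearest to Tnf among genes with a symbol was Mgat4a, a glycosyltransferase of N-glycan branching, at 0.09. Nearest to Il1rn were Gpc1, a heparan sulfate proteoglycan, at 0.10 and Rgs2, a regulator of G protein signalling, at 0.13. Nearest to Tnfaip3 was Cyb561a3, a cytochrome b561 family member, at 0.11, and nearest to Il6 was Gm10324 at 0.15. The other 4 nearest features, 1 each for Il1b, Tnf, Il6 and Tnfaip3, were NAP095950-001, LF194716, AK041010 and 4732471J01Rik.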

How the data were processed

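Per the file headers, the authors read each one-colour Agilent array with Feature Extraction 12.0.2 and deposited a processed intensity for each of 44397 spots, with probe positions in mm9. The deposited value table of log2 values (18417 probes, 7 of the tested members) served as an alternative. Outlier spots were dropped, the log2 intensities of a probe's spots were averaged, and levels were set relative to the 75th percentile of their array. Probes well above background on at least 4 of 5 arrays of a group and with a value on at least 20 arrays were kept (23617 of 39429), and the brightest stood for its gene. One limma 3.58.1 fit (R 4.3.3) of 6 group means over 30 arrays gave 24 residual degrees of freedom and 7 comparisons, with Benjamini-Hochberg adjustment over 18733 genes. The fit was tested on simulated data. Gene names are those of the p38DKI and p38WT files. The number of arrays limits the precision.

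Members and lists were chosen with earlier results of these data known. The named genes were the 10 members, the 2 genes of each pathway list with the smallest adjusted p over the 3 irradiation effects, those called in a difference of effects, and the 2 genes nearest to each called member. One gene that this rule names is not reported here. Marker lists for neutrophils, monocytes, dendritic cells, B cells, T cells, NK cells, platelets, red cells, basophils, hepatocytes, heart muscle and endothelium or fibroblasts were measured. Same-numbered arrays were correlated by their deviations from group means in each genotype: r lay between -0.21 and 0.41, and not every pair passed 0.1, so the numbers were not taken as pairs. The main fit therefore also leaves unused that same-numbered p38DN arrays shared a slide and a scan day. Alternatives were 15 settings of background, scaling, filter, values, spots, slide, replicate number, samples and hepatocyte level, and leaving out each array in turn.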

Additional observations from a re-analysis of the deposited data

Results flagged for a closer look

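Of 60 groups of 5 arrays (10 genes in 6 groups), 9 held an array whose gap to the nearest other was large for the range of its group. Chance flags about 1 in 20 groups where these are independent and normal. The groups here are not independent, since the 10 genes share the same arrays and scaling, so the count cannot be judged by that rate. Irradiated p38DKI replicate 2 accounted for 5 of them, being low for Ccl3 (-2.09, next -0.30), Ccl4 (0.41, next 2.26), Il1rn (-2.70, next -1.70), Tnfaip3 (-1.96, next -0.65) and Ptgs2 (-6.82, next -5.41, all below background). Its hepatocyte marker level was 8.89 above the median array. The 75th percentile intensity that scales its levels was 230.4, the highest of all arrays. The part of either in these values was not tested. Irradiated p38WT replicate 3, with the fewest probes above background, was low for Ccl3 (-2.46, next 0.11). The other 3 were Tnf on irradiated p38WT replicate 5 (-1.73, next -1.16), Ccl4 on unirradiated p38DKI replicate 3 (2.06, next 1.68) and Ccl4 on unirradiated p38WT replicate 2 (0.96, next 1.59).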

How the results depend on the processing

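Of the single-gene results recomputed with 1 array left out, 1668 stayed on their side of the threshold, 2 passed it and 10 lost it. Under the other settings 808 stayed, 9 passed and 14 lost it. The 808 include Cxcl2 and Ptgs2 without a filter, which had no test in the main fit and could not change sides. Uncalled results whose direction turned are counted among those that stayed. None changed sign while called. Over 45 recomputations Il1b was called in 44 for p38DKI and 44 for p38WT, Tnf in p38WT in 44, Tnfaip3 in 43 for p38DKI and 42 for p38WT, Il1rn in p38WT in 38, and Il6 in p38WT in 35 of 44. These counts overstate how sturdy the calls are. Leaving out an array of another genotype cannot change the estimate, only the shared spread. With 1 array left out, Il6 in p38WT was called in 25 of 30 fits and Il1rn in 26 of 30. Every loss came from leaving out a p38WT array. The deposited values held no tested Il6 probe.

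Members called in p38DKI (2) numbered 1 with array medians and 0 with the slide as a fixed block, and those in p38WT (5) numbered 0 with that block and 3 without the arrays high in heart muscle markers. With the fixed slide block each of these effects rests on 1 slide, and 681 genes were called in p38DKI and 163 in p38WT. In p38DKI minus p38WT (1 gene) the count was 14 with normexp, 75 with a random slide block, 7 with the hepatocyte covariate, and 0 with array medians, the percentile over detected probes, no filter, the compared groups alone, and without the hepatocyte or the heart arrays. In p38DN minus p38WT (307 genes) it was 1061 with normexp, 106 with array medians, 78 without a filter, 2 with the fixed and 461 with the random slide block, 505 with the compared groups alone, 695 without the hepatocyte arrays, 85 without the heart arrays and 1053 with the hepatocyte covariate, which called 1 member. In irradiated p38DKI against p38WT (844 genes) it was 88 with array medians, 444 in the deposited values, 335 without a filter, 1 with the fixed slide block, 1922 with the random one (3 members), 1 with the compared groups alone, 315 without the hepatocyte arrays, 429 without the heart arrays and 120 with the covariate. In unirradiated blood (19 genes) it was 12 with array medians, 30 with the percentile over detected probes, 2 with the fixed and 35 with the random slide block, 33 without the hepatocyte arrays, 10 without the heart arrays and 260 with the covariate. The causes were not tested.

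Leaving out 1 array gave 2 members in p38DKI, 0 in p38DN and 3 to 5 in p38WT, with 3 without irradiated replicates 3 or 4 or unirradiated replicate 4. The count of genes in p38DKI minus p38WT was 0 to 70 (without p38DKI irradiated replicate 5). Leaving out any of many arrays gave that 0, p38DKI irradiated replicate 2 and several p38DN arrays among them. The count was 84 (without p38WT unirradiated replicate 1) to 1102 (without p38DKI irradiated replicate 2) in p38DN minus p38WT. For irradiated p38DKI against p38WT it was about 2.2e+02 (without p38DKI irradiated replicate 2) to 1062, with 0 to 1 members. For unirradiated blood it was 9 (without p38DKI unirradiated replicate 4) to 33 (without p38WT unirradiated replicate 5).

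With the replicate number as a block, 2 members were called in p38DKI, 0 in p38DN and 4 in p38WT, where Il1rn was lost (adjusted p 0.0525), and p38DN minus p38WT had 117 genes. Arrays correlated best with their own number for 7 of 15 numbers. For p38DN the same-numbered arrays shared a slide and a scan day of their own, so there the number is also a slide block. For p38DKI and p38WT, where same-numbered arrays lay on different slides, it is a hint from the data and not the design. The dim signals of Tnf, Il6 and Il1rn over background limit their precision.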

Other observations

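Marker lists whose calls are not given above moved as follows. Of 9 tested T cell markers, 8 fell in p38DKI, 5 in p38DN and 6 in p38WT, and none rose. Of 8 tested NK cell markers, 3 rose in p38DKI, 1 in p38DN and 6 in p38WT. Of 16 tested monocyte and macrophage markers, 6 rose and 1 fell in p38DKI, 10 rose and 1 fell in p38DN and 6 rose and 2 fell in p38WT. Of 10 tested red cell markers, 7 fell in p38DKI, 5 fell in p38DN and 1 rose and 4 fell in p38WT. Of 5 tested dendritic cell markers, 1 rose and 1 fell in each genotype. Of 5 tested basophil and mast cell markers, 3 fell in p38DKI, 1 rose in p38DN and 1 rose and 2 fell in p38WT. Of 19 tested hepatocyte markers, 1 rose in p38DKI, 2 fell in p38DN and 1 rose in p38WT, and of 8 heart muscle markers none was called. Of 6 tested endothelial and fibroblast markers, 4 rose in p38DKI, 4 in p38DN and 1 in p38WT.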
